A study of Mus musculus with 6 samples.

Results

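The genes of F-box proteins were examined in muscle of C26 tumor-bearing mice and control mice. Members were the probe sets whose gene symbol begins with Fbxo, Fbxl or Fbxw followed by a number, together with Skp1, Skp2 and Rbx1, so that the rule goes by name and uses no measured value. The rule took 75 of 21212 probe sets on the array, each standing for 1 gene. Of these 36 were Fbxo genes, 17 were Fbxl genes and 19 were Fbxw genes, and the other 3 were Skp1, Skp2 and Rbx1.

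F-box proteins are the part of an SCF ubiquitin ligase that picks the substrate. The F-box binds the adaptor Skp1, Skp1 binds the scaffold cullin 1, and the RING protein Rbx1 brings the ubiquitin-loaded E2 enzyme, so that a protein held by the F-box subunit is ubiquitinated and sent to the proteasome. The last letter of the symbol gives the part that holds the substrate, which is a set of leucine-rich repeats in Fbxl proteins, WD40 repeats in Fbxw proteins and other domains in Fbxo proteins. In skeletal muscle the best known member is Fbxo32, which encodes atrogin-1/MAFbx, a ligase subunit that is induced in many forms of muscle wasting.

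The C26 pools came from male CDF1 mice that had been given C26 colon carcinoma cells in PBS/matrigel under the skin of both flanks. The control pools came from male CDF1 mice given PBS/matrigel without tumor cells. Mice were 8 weeks old when purchased, and muscles were taken 25 days after inoculation. RNA from gastrocnemius and plantaris muscles of 4 tumor-bearing and 3 control mice was combined, 2 to 3 muscles per pool, into 3 C26 pools (replicates 1, 3 and 4) and 3 control pools (replicates 1, 2 and 3). Every pool had its own Affymetrix Mouse Gene 1.0 ST array. The sources used here do not say which muscles went into which pool. Pools of a group may share a mouse, and the p-values measure only the spread between pools.

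Expression is given as the deposited log2 value from RMA, so that a difference of 1 is a doubling. C26 and control pools were compared with limma, and p-values were adjusted by Benjamini-Hochberg over all 21212 probe sets. The words rose, fell and called are kept for genes that changed 1.5-fold or more with an adjusted p of 0.05 or less. The background level was 3.82 (log2), the 95th percentile of 1259 probe sets of olfactory and vomeronasal receptors. Array medians lay between 4.93 and 5.02, and arrays correlated at 0.994 to 0.996 within a group and at 0.976 to 0.981 between groups (Pearson's r). Of 10 muscle fiber markers limma called 0, although all 10 had negative log2 fold changes. At an unadjusted p under 0.05, 3 were lower. Of these, Mb and Pvalb passed an adjusted p of 0.05 (limma), with log2 fold changes of −0.47 and −0.51. The mean level of the 10 markers was 11.94 to 12.02 in the C26 pools and 12.13 to 12.18 in the control pools. Of 7 macrophage markers 5 rose, of 8 neutrophil markers 6 rose, and of 7 fibroblast markers 4 fell. The macrophage markers Adgre1 and Csf1r were not called, with log2 fold changes of 0.002 and 0.015. The fibroblast markers that fell were Col1a1, Col1a2, Col3a1 and Postn. Of the others Pdgfra was higher (log2 fold change 0.50, adjusted p = 0.00135 from limma), Dcn stood at 0.03 and Lum at −0.46. The mean macrophage marker level was 6.69 to 6.78 in the C26 pools and 5.87 to 6.00 in the control pools. The neutrophil level was 4.42 to 4.69 in the C26 pools and 3.17 to 3.32 in the control pools, with Camp, Ltf and Ngp at or below background in both groups. Ngp is among the 6 that rose, and 3 others of them (S100a8, Cxcr2 and Retnlg) had control means below background. The fibroblast level was 7.75 to 8.01 in the C26 pools and 8.77 to 8.89 in the control pools. Of 6 endothelial markers 1 rose and 1 fell, and 3 of 5 adipocyte markers fell. Limma called 0 of 6 lymphocyte and 0 of 8 epithelial markers (1 and 3 were lower at an unadjusted p under 0.05). At an adjusted p of at most 0.05, 0 lymphocyte markers and 1 epithelial marker were lower. At or below background in both groups lay 4 of the lymphocyte and 3 of the epithelial markers, and 1 more lymphocyte marker in 1 group. With these markers at background, the counts say little about these cell types. The part of these cell types in the changes of F-box genes was not tested, and in whole muscle RNA fewer cells of a type and less RNA per cell cannot be told apart.

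In C26 muscle 6 members rose and 4 fell, and 65 of the 75 were not called. Fbxo32, Fbxo31, Fbxo30, Fbxw11, Fbxo6 and Fbxo4 rose, by 1.55-fold to 4.35-fold. Fbxw7, Fbxl17, Fbxo3 and Fbxl16 fell, by 1.60-fold to 2.18-fold. Over the whole array 5.94% of probe sets rose and 4.95% fell, 10.9% in all, and 10 called genes are 13.3% of the members. Rises made up 54.6% of the calls on the array, or 64.6% when arrays were centred on their medians, which left the calls among the members as they were. The members had a median log2 fold change of −0.06 and the whole array had −0.05. The median size of the change, without its sign, was 0.18 (log2) over the members and 0.17 over all probe sets. Members were thus called about as often as other probe sets, and their median stood close to that of the array.

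**Figure D1:**
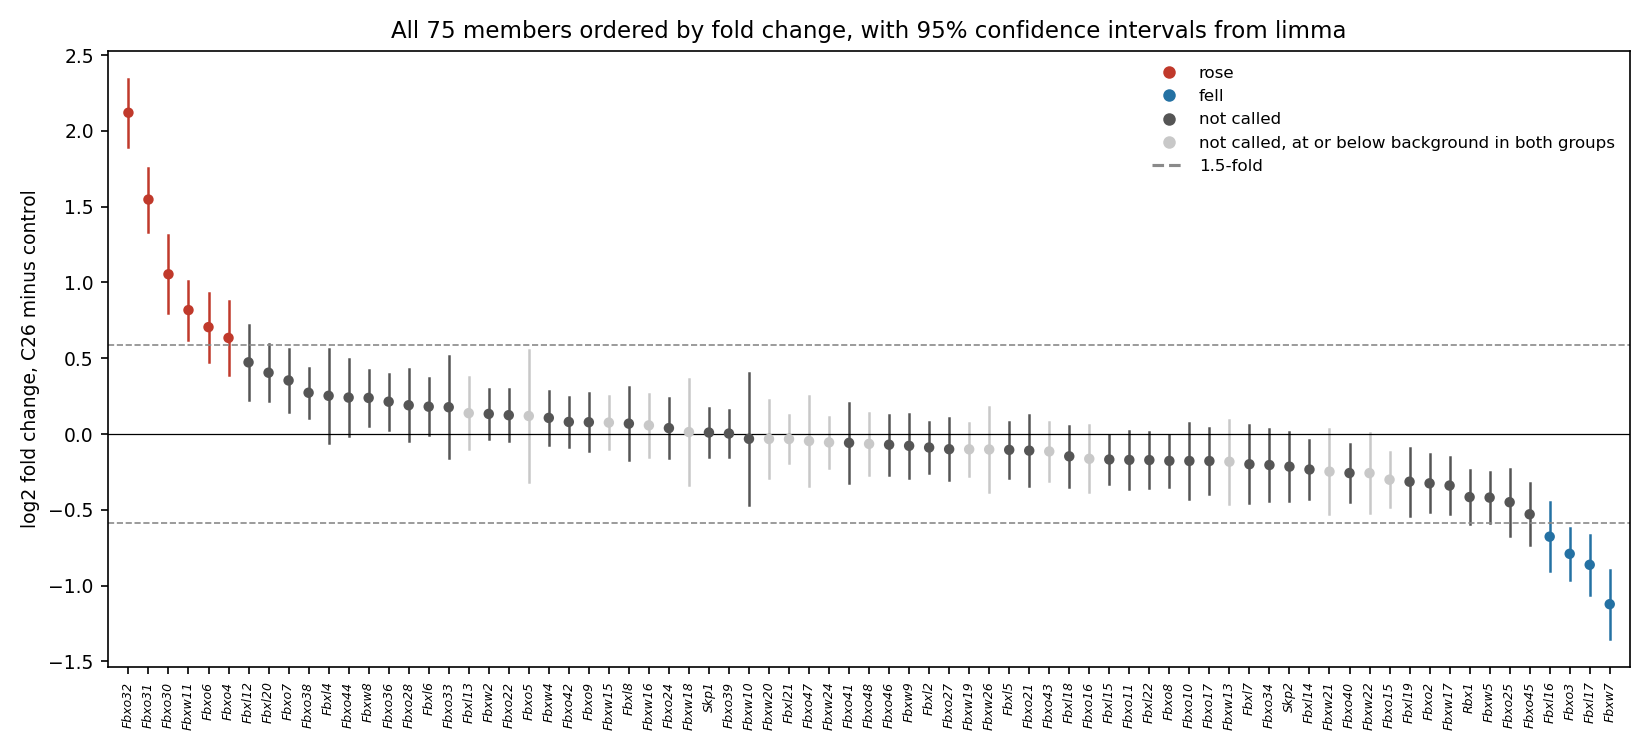
The log2 fold change (C26 minus control) of each of the 75 members is plotted on the vertical axis, with its 95% confidence interval from limma and genes in order of their change on the horizontal axis; dashed lines mark 1.5-fold. Fbxo32 stands highest at 2.12 and Fbxw7 lowest at −1.12, and most members lie between the dashed lines.

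With the 1.5-fold minimum set aside, 10 members were higher (14.3% of all probe sets were) and 13 were lower (15.8% of all) in C26 muscle at an adjusted p of 0.05 or less. These 23 are 30.7% of the members, against 30.1% of all probe sets. The values of the 3 C26 pools and the 3 control pools did not overlap for 34 members, which is 45.3%, against 43.9% of all probe sets. Of the members 18 lay at or below background in both groups (24.0%, against 29.9% of all probe sets), 1 (Fbxo24) lay below it in 1 group, and 56 lay above it in both. The 10 called genes were all above background in both groups.

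By family, 5 of 36 Fbxo genes rose (13.9%, against 5.94% of all probe sets) and 1 fell (2.78%, against 4.95%). Of 17 Fbxl genes 0 rose and 2 fell (11.8%) under limma, while 2 were higher and 5 lower at an unadjusted p under 0.05. Of 19 Fbxw genes 1 rose and 1 fell (5.26% each). At or below background in both groups lay 52.6% of the Fbxw genes, against 16.7% of Fbxo and 11.8% of Fbxl genes. Among the 9 Fbxw genes above background the shares were 11.1% each, against 8.31% and 6.87% of all probe sets above background. The median log2 fold changes were −0.05 for Fbxo, −0.10 for Fbxl and −0.06 for Fbxw genes. The difference between the families was not tested.

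Fbxo32 was the member with the largest change. It had log2 values of 12.09, 12.13 and 12.11 in the C26 pools, against 9.81, 10.00 and 10.16 in the control pools. The C26 pools lay within 0.02 (SD) of their mean, and every one of them was above every control pool. The log2 rise of 2.12, or 4.35-fold, had an SE of 0.10 and an adjusted p of 3.89e-06 (limma). The protein is known to target the myogenic factor MyoD and the translation factor eIF3f.

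Fbxo31 was next. This F-box protein is known from human cells to direct cyclin D1 to degradation after DNA damage. Fbxo31 had log2 values of 10.48, 10.67 and 10.62 in the C26 pools, against 9.01, 8.94 and 9.18 in the control pools. It rose by 1.55 (log2, SE 0.09, adjusted p = 1.34e-05 from limma), or 2.92-fold. Fbxo30, which encodes the muscle ligase subunit MUSA1 and is known to be held down by BMP signaling, had log2 values of 7.99, 7.91 and 7.76 in the C26 pools, against 6.98, 6.90 and 6.61 in the control pools. Its rise was 1.05 (log2, SE 0.11, adjusted p = 0.000216 from limma), or 2.08-fold. For both genes the lowest C26 pool was above the highest control pool.

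The other 3 rises were smaller, and none reached 2-fold. Fbxw11 encodes β-TrCP2, which takes IκBα, β-catenin and other phosphorylated proteins to the ligase. Its log2 values were 8.34, 8.49 and 8.28 in the C26 pools, against 7.62, 7.56 and 7.48 in the control pools, a rise of 0.82 (log2, SE 0.09, adjusted p = 0.000189 from limma). Fbxo6 encodes a subunit that binds the sugar chains of misfolded glycoproteins. Its log2 values were 8.13, 8.38 and 8.47 in the C26 pools, against 7.66, 7.57 and 7.63 in the control pools, a rise of 0.71 (log2, SE 0.10, adjusted p = 0.000954). Fbxo4, whose protein is known to target the telomere protein Trf1, had log2 values of 5.43, 5.50 and 5.70 in the C26 pools, against 5.08, 4.88 and 4.78 in the control pools. Its rise of 0.63 (log2, SE 0.11, adjusted p = 0.00228 from limma) was the closest to the 1.5-fold threshold, and the groups did not overlap. Fbxo4 was no longer called without control replicate 3, when its fold change was 0.57 (log2), or without C26 replicate 4, when it was 0.56. Fbxo4 and Fbxo6 were also not called when variances were taken as unequal.

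Of the genes that fell, Fbxw7 changed most. Its protein is the substrate receptor for Myc, cyclin E, Jun, Notch1, Mcl1 and Srebf1. Fbxw7 had log2 values of 5.23, 5.50 and 5.33 in the C26 pools, against 6.62, 6.43 and 6.38 in the control pools. It fell 2.18-fold (log2 fold change −1.12 with SE 0.10, limma adjusted p = 8.57e-05), and its pools did not overlap. Fbxl17, which is known to check the pairing of BTB domain proteins, had log2 values of 8.58, 8.45 and 8.32 in the C26 pools, against 9.30, 9.32 and 9.32 in the control pools. Its log2 fold change was −0.86 (SE 0.09, adjusted p = 0.000149 from limma), and the control pools lay within 0.01 (SD) of their mean.

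Fbxo3, which is known to target other ligases, Fbxl2 and Smurf1, had log2 values of 8.01, 7.88 and 7.90 in the C26 pools, against 8.68, 8.72 and 8.76 in the control pools. Its log2 fold change was −0.79 (SE 0.08, adjusted p = 0.000121 from limma), with every C26 pool below every control pool. Fbxl16, an F-box protein that has been found outside of cullin 1 ligases, had log2 values of 4.69, 4.36 and 4.51 in the C26 pools, against 5.27, 5.09 and 5.22 in the control pools. Its log2 fold change was −0.68 (SE 0.10, adjusted p = 0.00124 from limma), and its groups did not overlap either. Fbxl16 and Fbxl17 were not called when variances were taken as unequal.

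**Figure D2:**
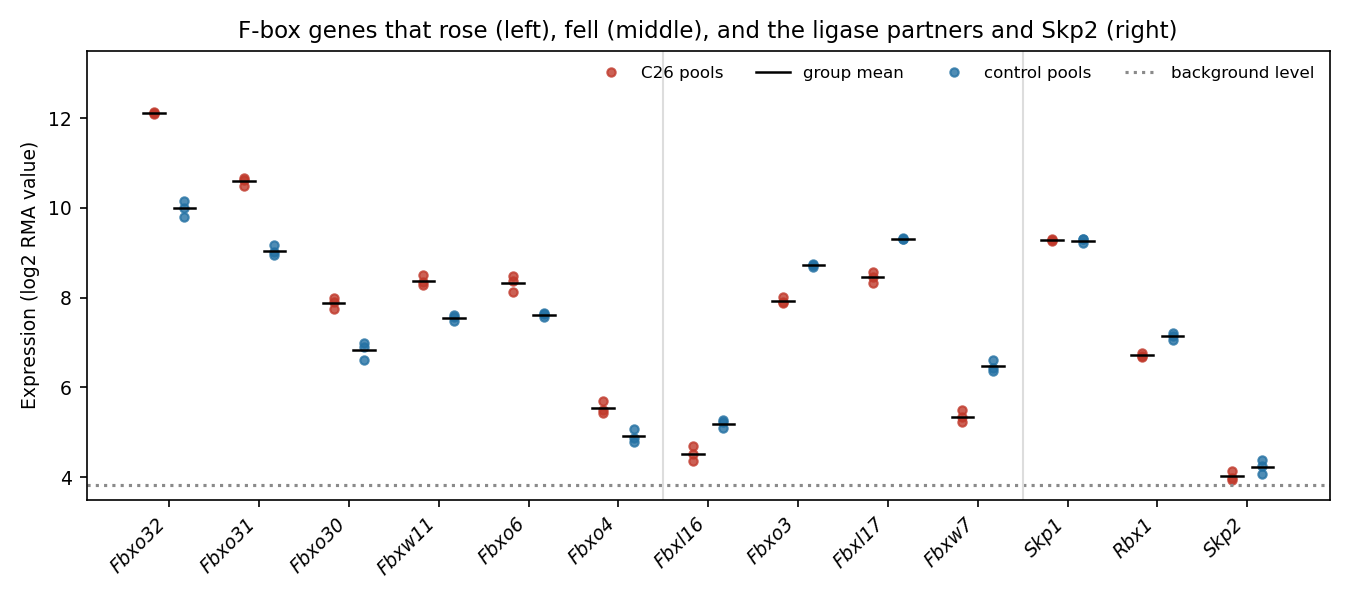
Log2 RMA values of the 3 C26 pools and, to their right, the 3 control pools are plotted for the 10 called genes and for Skp1, Rbx1 and Skp2, with a line at each group mean and a dotted line at the background level of 3.82. The groups are apart for each of the 10 called genes and for Rbx1, and they overlap for Skp1 and Skp2.

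Promoters were read from RefSeq (GRCm38.p6) as the 250 bases before and the first 50 bases after a transcript start, and 58 of the 75 members had 80 such promoters. Fbxo32 and Fbxo3 were not among them. Those of Fbxo31 and Fbxo30 are shown because these genes had the largest rises among the genes with an entry, and those of Fbxo4 and Fbxw7 because they were the called genes with a match to a searched motif. Each is written 5′ to 3′ along the strand of the gene, with the match to TTGCNNAA (C/EBP) in capitals.
Fbxo31 (chr8:121578757-121579056, minus strand): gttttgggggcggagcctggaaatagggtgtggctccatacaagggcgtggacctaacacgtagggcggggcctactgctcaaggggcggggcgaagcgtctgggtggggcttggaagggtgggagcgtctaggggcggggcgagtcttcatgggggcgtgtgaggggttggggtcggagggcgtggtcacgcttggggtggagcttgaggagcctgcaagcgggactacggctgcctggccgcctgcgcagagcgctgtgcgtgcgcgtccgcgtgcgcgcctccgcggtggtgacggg
Fbxo30 (chr10:11281337-11281636, plus strand): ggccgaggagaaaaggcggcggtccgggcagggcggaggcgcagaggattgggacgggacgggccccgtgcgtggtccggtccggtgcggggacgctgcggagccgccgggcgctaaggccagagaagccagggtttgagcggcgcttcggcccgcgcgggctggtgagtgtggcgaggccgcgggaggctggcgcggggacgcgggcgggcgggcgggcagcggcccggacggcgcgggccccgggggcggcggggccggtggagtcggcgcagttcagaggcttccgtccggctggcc
Fbxo4 (chr15:3979524-3979823, minus strand): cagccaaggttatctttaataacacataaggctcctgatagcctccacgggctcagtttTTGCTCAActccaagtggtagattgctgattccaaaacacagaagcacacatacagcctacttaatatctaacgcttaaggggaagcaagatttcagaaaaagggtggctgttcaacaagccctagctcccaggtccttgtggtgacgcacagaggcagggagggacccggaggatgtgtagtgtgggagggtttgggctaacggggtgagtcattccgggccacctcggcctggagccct
Fbxw7 (chr3:84951961-84952260, plus strand): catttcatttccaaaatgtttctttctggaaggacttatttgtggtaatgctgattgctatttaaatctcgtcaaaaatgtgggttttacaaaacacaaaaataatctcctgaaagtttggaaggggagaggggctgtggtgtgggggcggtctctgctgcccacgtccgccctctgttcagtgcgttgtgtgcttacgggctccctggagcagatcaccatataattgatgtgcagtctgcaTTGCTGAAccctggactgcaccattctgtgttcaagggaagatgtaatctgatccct

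The 4 sequences differ in base composition. G and C make up 69.7% of the Fbxo31 promoter, 79.7% of the Fbxo30 promoter, 52.0% of the Fbxo4 promoter and 46.0% of this Fbxw7 promoter, against a median of 58.7% over the member promoters and 52.7% over all promoters. The Fbxw7 promoter is 1 of 3 listed for the gene, and the others held no match. Counted from the transcript start, the first base of the match is at −191 in Fbxo4 and at −7 in Fbxw7.

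Motifs were searched on both strands. The FoxO motif TGTTTAC was found in 0 of the 80 member promoters, against 3.65% of 32851 promoters of the same length. Fbxo32 had no promoter entry and was not searched, so this count does not cover it. Member promoters were richer in G and C than all promoters (medians of 58.7% and 52.7%). The effect of this on matches to the motif was not tested. The STAT motif TTCNNNGAA was found in 11 of the 80 member promoters, of 7 genes, against 8.30% of all promoters. None of these genes was among the 8 called genes that had a promoter. The C/EBP motif TTGCNNAA was found in 13 of the 80 member promoters, of 9 genes, against 10.8% of all promoters. Fbxo4 and Fbxw7 were the called genes among these 9, 1 that rose and 1 that fell. Several promoters of a gene overlap, so that a match can be counted more than once, as in Fbxo27 for the STAT and C/EBP motifs. A match of letters describes the sequence and says nothing of binding, and windows of this length leave out more distant elements.

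Among the 3 C26 pools, replicate 1 lay nearest to the control mean for 4 of the 6 genes that rose and for 3 of the 4 that fell. The median shift of the 6 risen genes from the control mean was 0.97 (log2) in replicate 1, 1.01 in replicate 3 and 0.89 in replicate 4. For the 4 genes that fell it was −0.72, −0.85 and −0.91 in the same order. Each of the 10 genes moved the same way in all 3 C26 pools. The genes were called from these same pools, which favors such agreement.

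Called members were found at many levels. Fbxo32, Fbxo31, Fbxl17 and Fbxo3 had control means between 8.72 and 9.99 (log2), whereas Fbxo4, Fbxl16 and Fbxw7 had control means between 4.91 and 6.47. Skp1 and Fbxo40 also had high values in control muscle, with means of 9.27 and 9.66 (log2), and changed by less than 1.5-fold. These values rank probe sets on the array, and since probes differ in brightness they do not rank the transcripts.

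**Figure D3:**
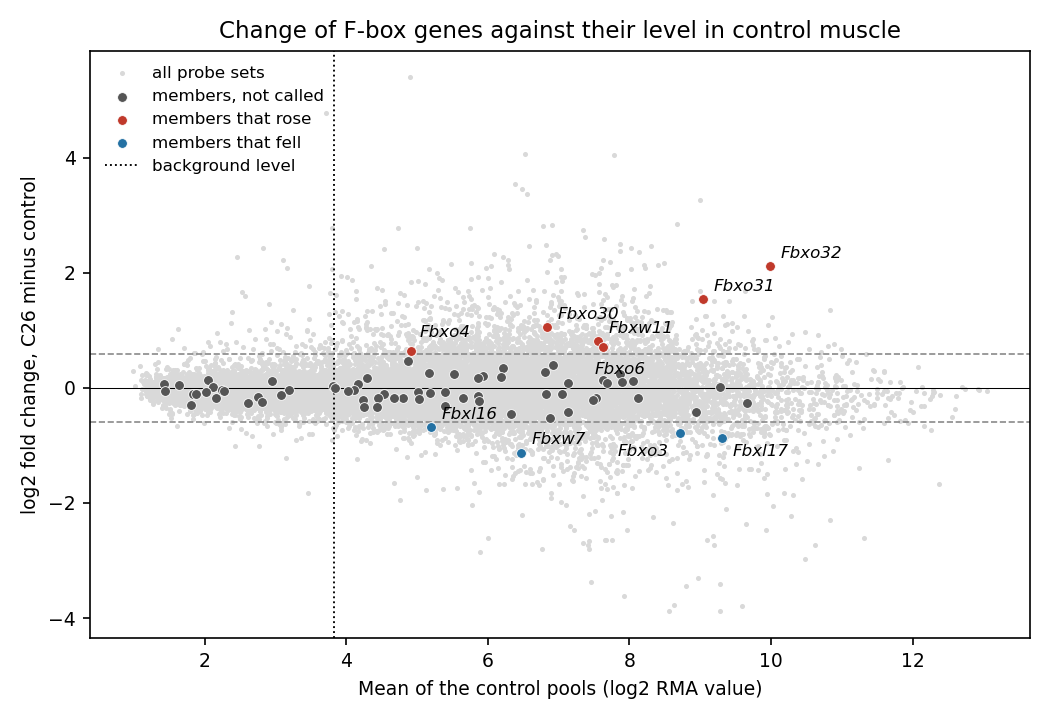
The log2 fold change (C26 minus control) is plotted against the mean log2 RMA value of the control pools for all 21212 probe sets (light grey) and for the 75 members (larger points), with a dotted line at the background level and dashed lines at 1.5-fold. The 6 genes that rose and the 4 that fell are spread along the levels above background, and members left of the dotted line lie near 0.

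A further 13 members passed an adjusted p of 0.05 but changed by less than 1.5-fold. Fbxl12, Fbxl20, Fbxo7 and Fbxo38 were higher in C26 muscle, with log2 fold changes of 0.47, 0.40, 0.35 and 0.27. The other 9 were lower, between −0.26 and −0.53. Fbxo45, whose protein works with the ligase Mycbp2 rather than with cullin 1, was the nearest to the threshold from below. It had log2 values of 6.35, 6.46 and 6.22 in the C26 pools, against 6.96, 6.79 and 6.87 in the control pools, so that its log2 fold change was −0.53 (limma SE 0.09, adjusted p = 0.00245). Fbxo45 was called without C26 replicate 3, when its log2 fold change was −0.59. Fbxl12 averaged 5.34 ± 0.10 in C26 and 4.87 ± 0.19 in control muscle (log2, SD, n = 3 pools each). Fbxw5, which can act with cullin 4 ligases, averaged 8.52 ± 0.04 in C26 and 8.94 ± 0.06 in control muscle. Fbxw17, Fbxo2, Fbxl19, Fbxo15 and Fbxo40 had log2 fold changes between −0.34 and −0.26, and Fbxo15 lay below background in both groups.

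A list of 10 F-box genes studied in muscle held 3 genes that rose (Fbxo32, Fbxo31 and Fbxo30), 1 that fell (Fbxw7) and 6 that were not called, so that 40.0% were called, against 10.9% of all probe sets. Its members had been picked with earlier results of these data known. Fbxo40, a muscle-specific subunit that targets the insulin receptor substrate Irs1, had log2 values of 9.33, 9.50 and 9.38 in the C26 pools, against 9.74, 9.68 and 9.56 in the control pools. Its log2 fold change was −0.26 (SE 0.08, adjusted p = 0.0496 from limma). Fbxo21, known as SMART in studies of muscle wasting, averaged 6.93 ± 0.18 in C26 and 7.04 ± 0.05 in control muscle (log2, SD, n = 3 pools each), and the 95% interval of its log2 fold change was −0.34 to 0.12. Fbxo11, a receptor for Bcl6 and Cdt1, averaged 7.36 ± 0.11 in C26 and 7.53 ± 0.05 in control muscle, with an interval of −0.36 to 0.02. Fbxl22, a cardiac and muscle subunit that binds α-actinin and filamin C, averaged 4.27 ± 0.08 in C26 and 4.45 ± 0.08 in control muscle, with an interval of −0.36 to 0.01. Fbxl21, which acts on cryptochromes, was below background in both groups. For Fbxo21, Fbxo11 and Fbxl22 these intervals leave out a 1.5-fold change in either direction.

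The relatives examined of Fbxo32, Fbxo30, Fbxw11 and Fbxo6 were not called, as most probe sets were not (10.9% of all were). No relatives of Fbxo31, Fbxo4 or the genes that fell were examined. Fbxo25, the nearest relative of Fbxo32, had log2 values of 5.95, 5.73 and 5.97 in the C26 pools, against 6.21, 6.34 and 6.45 in the control pools. Its log2 fold change was −0.45 (95% interval −0.67 to −0.23, adjusted p = 0.00820 from limma), beside 2.12 (1.90 to 2.34) for Fbxo32. Fbxo40, the relative of Fbxo30, had an interval of −0.45 to −0.06, beside 0.80 to 1.31 for Fbxo30. Btrc encodes β-TrCP1, the relative of Fbxw11 with the same known substrates. Btrc averaged 7.50 in C26 and 7.68 in control muscle (log2), a log2 fold change of −0.18 with an interval of −0.36 to −0.01 (adjusted p = 0.114), beside 0.62 to 1.01 for Fbxw11. Differences between genes were not tested.

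Fbxo6, Fbxo2 and Fbxo44 lie on chromosome 4 and belong to 1 small family of related subunits, of which Fbxo2 and Fbxo6 are known to bind glycoproteins. Fbxo6 rose. Fbxo2 had log2 values of 3.90, 3.93 and 3.97 in the C26 pools, against 4.33, 4.12 and 4.32 in the control pools, a log2 fold change of −0.33 (95% interval −0.52 to −0.13, adjusted p = 0.0183 from limma). Its C26 mean of 3.93 lay close to the background level of 3.82. Fbxo44 averaged 5.77 ± 0.15 in C26 and 5.53 ± 0.16 in control muscle (log2, SD, n = 3 pools each), with an interval of −0.01 to 0.49. In the pairs with no called member, Fbxl2 and Fbxl20 had log2 fold changes of −0.09 and 0.40, Fbxo10 and Fbxo11 of −0.18 and −0.17, and Fbxo17 and Fbxo27 of −0.18 and −0.10.

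**Figure D4:**
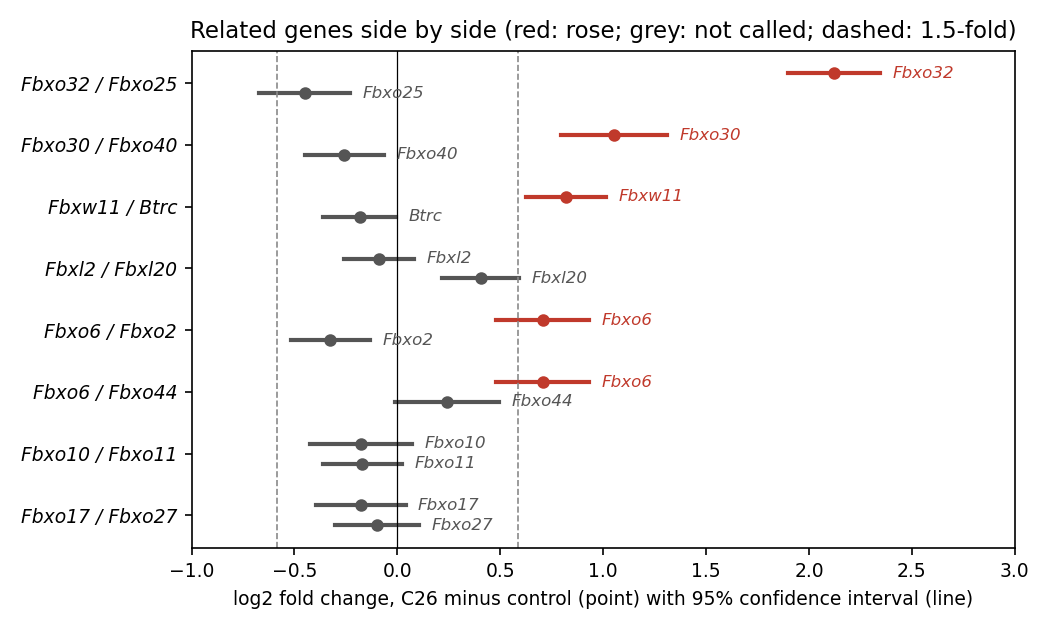
The log2 fold change (C26 minus control) with its 95% confidence interval from limma is drawn on the horizontal axis for pairs of related genes, 1 pair per row, with dashed lines at 1.5-fold. In the 5 rows with a gene that rose (red), the relative (grey) lies below it, from −0.45 for Fbxo25 to 0.24 for Fbxo44. These rows were singled out by the rise, which favors this order, and Fbxo6 stands in more than 1 of them.

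The 18 members at or below background in both groups hold 10 Fbxw genes of chromosome 9 (Fbxw13, Fbxw15, Fbxw16, Fbxw18, Fbxw19, Fbxw20, Fbxw21, Fbxw22, Fbxw24 and Fbxw26), a run of related genes in mouse that probes may not tell apart. None of the 9 Fbxw genes on other chromosomes was at or below background in both groups. The other 8 were Fbxl13, Fbxl21, Fbxo5, Fbxo15, Fbxo16, Fbxo43, Fbxo47 and Fbxo48. Fbxo5 and Fbxo43 encode the inhibitors of the anaphase-promoting complex Emi1 and Emi2, which act in dividing cells and in eggs. Of these 18 only Fbxo15 passed an adjusted p of 0.05.

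The subunits of the SCF core, Cul1, Skp1 and Rbx1, did not move together. Cul1, the scaffold, had log2 values of 8.64, 8.83 and 8.79 in the C26 pools, against 8.20, 7.98 and 8.02 in the control pools, a rise of 0.69 (log2, SE 0.09, adjusted p = 0.000659 from limma). After quantile normalization its log2 fold change was 0.57 and it was not called. Skp1, the adaptor, had log2 values of 9.30, 9.27 and 9.28 in the C26 pools, against 9.30, 9.31 and 9.21 in the control pools. The difference was 0.01 (log2, 95% interval −0.15 to 0.17, adjusted p = 0.937 from limma), which leaves out a 1.5-fold change. Rbx1, the RING subunit, had log2 values of 6.71, 6.77 and 6.69 in the C26 pools, against 7.05, 7.15 and 7.21 in the control pools. It was lower in every C26 pool with a log2 fold change at −0.42 (limma SE 0.08, adjusted p = 0.00388), which is less than 1.5-fold. Its relative Rnf7 had a log2 fold change of −0.30 (adjusted p = 0.0547). Skp2, the F-box protein that targets the cell cycle inhibitor p27, had log2 values of 3.99, 3.94 and 4.13 in the C26 pools, against 4.07, 4.25 and 4.38 in the control pools. Its values overlapped and lay close to background.

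Genes that load and regulate the ligase were called about as often as all probe sets, or not at all. The share called was 10.0% for the NEDD8 pathway and 9.09% for COP9, CAND and glomulin genes, against 10.9% of all probe sets. At an adjusted p of at most 0.05 alone the shares were 40.0% and 45.5%, against 30.1%. Of 10 genes of the NEDD8 pathway, which switches cullins on, 0 rose and 1 fell under limma, and 1 was higher and 4 were lower at an unadjusted p under 0.05. That gene was Dcun1d2, a promoter of cullin neddylation, with log2 values of 7.11, 6.93 and 6.93 in the C26 pools, against 7.99, 7.95 and 7.83 in the control pools (log2 fold change −0.93, SE 0.09, adjusted p = 0.000102 from limma). Nae1, a subunit of the NEDD8-activating enzyme, was higher by 0.38 (log2, adjusted p = 0.00456), under the 1.5-fold minimum. Of 11 genes of the COP9 signalosome, which removes NEDD8, the CAND exchange factors and the Rbx1 inhibitor glomulin, 0 rose and 1 fell, and 3 were higher and 3 lower at an unadjusted p under 0.05. That gene was Cand2, the muscle relative of Cand1, with log2 values of 8.12, 8.12 and 7.91 in the C26 pools, against 8.83, 8.69 and 8.81 in the control pools (log2 fold change −0.73, SE 0.09, adjusted p = 0.000427). Cand1 had a log2 fold change of 0.09. Cops2 and Cops5, of which Cops5 cuts NEDD8 off the cullin, were higher by 0.52 and 0.47 (log2), with adjusted p-values of 0.00781 and 0.00429, and did not reach 1.5-fold. Cops2 was called without C26 replicate 1, when 1 of the 11 genes rose.

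Of 8 E2 enzyme genes limma called 0, although 2 were higher and 4 were lower at an unadjusted p under 0.05, and the same numbers at an adjusted p of at most 0.05. Ube2g1 was 0.56 higher (log2), and Ube2d2a and the Cdc34 relative Ube2r2 had log2 fold changes of −0.50 and −0.44. Of 7 other cullins limma called 0, with 2 higher and 2 lower at an unadjusted p under 0.05, and Cul4b came closest with 0.58 (log2, adjusted p = 0.00610 from limma). An adjusted p of 0.05 was passed by 42.9% of these cullins. Ube2g1 and Cul4b were called when the arrays were centred on their medians. Ube2g1 was also called without C26 replicate 1, and Cul4b without C26 replicate 1, C26 replicate 4 or control replicate 3, so that 1 gene of each list then rose. The methods' test and a test with unequal variances also called 0 in both lists. Of 9 F-box genes with other names, Skp2 and Btrc among them, 0 rose and 1 fell, and 2 were higher and 2 lower at an unadjusted p under 0.05. That gene was Kdm2b, a histone demethylase with an F-box, with log2 values of 5.78, 5.67 and 5.65 in the C26 pools, against 6.48, 6.40 and 6.45 in the control pools (log2 fold change −0.74, SE 0.08, adjusted p = 0.000163).

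Transcripts of proteins known as F-box substrates changed in both directions. Of 24 such genes 5 rose and 5 fell, which is 41.7%, against 10.9% of all probe sets. The list was written with earlier results of these data known, and it holds stress and cell cycle genes. Cdkn1a, the cell cycle inhibitor p21 and a substrate of Skp2, had log2 values of 9.23, 9.75 and 9.79 in the C26 pools, against 7.02, 6.79 and 6.52 in the control pools, a rise of 2.81 (SE 0.17, adjusted p = 1.49e-05 from limma). Myc, a substrate of Fbxw7, had log2 values of 7.39, 7.06 and 7.28 in the C26 pools, against 5.51, 5.54 and 5.90 in the control pools, a rise of 1.59. Cry2, a repressor of the circadian clock, rose by 1.84 (log2). Per1 and Mcl1 rose by 0.71 and 0.64 (log2).

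Bcl6, a transcriptional repressor that Fbxo11 acts on, fell, its log2 fold change being −1.77 (limma SE 0.10, adjusted p = 7.60e-06). Myod1, a substrate of Fbxo32, had log2 values of 6.18, 6.63 and 6.83 in the C26 pools, against 8.00, 8.15 and 8.09 in the control pools, a log2 fold change of −1.53. Ccnd1, which encodes cyclin D1, had log2 values of 4.63, 5.13 and 4.70 in the C26 pools, against 6.65, 6.10 and 6.31 in the control pools, also a log2 fold change of −1.53. Eif3f, the other Fbxo32 substrate named above, was 0.50 higher in C26 muscle (log2, SE 0.09, adjusted p = 0.00254 from limma) and did not reach 1.5-fold. Srebf1 and Wee1 had log2 fold changes of −1.34 and −0.67. Wee1 was not called by the methods' test with equal variances. Wee1 was not called without control replicate 3 either, nor Mcl1 without C26 replicate 3, which left 4 genes that fell and 4 that rose. With unequal variances Wee1 and Myod1 were not called, and 3 fell. Among the Fbxw7 substrates Jun (0.30, adjusted p = 0.0343), Notch1 (0.07) and Ccne1 (0.12) were not called. The arrays measured transcripts, and the levels of these proteins were not measured here.

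**Figure D5:**
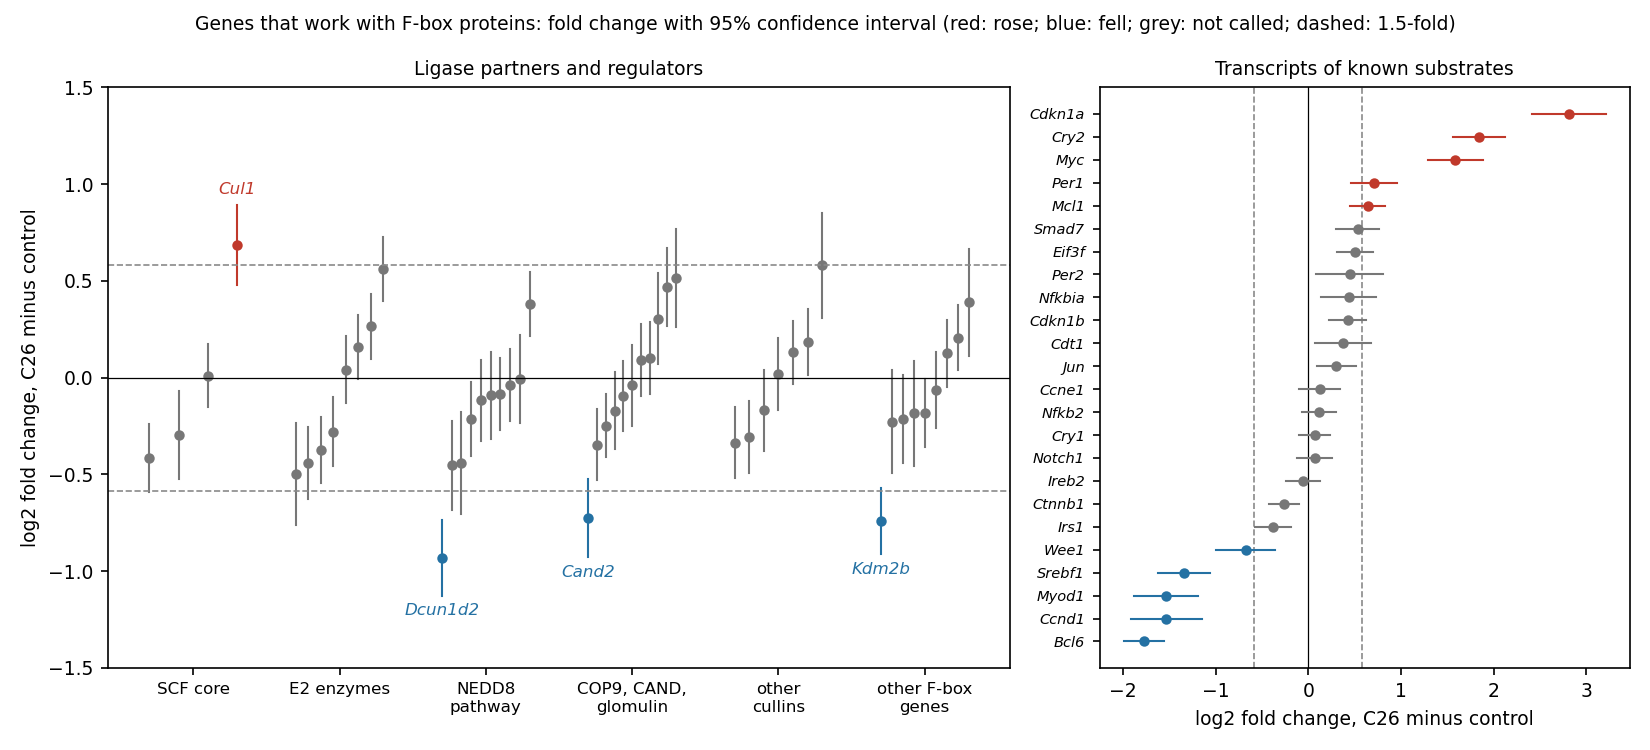
The log2 fold change (C26 minus control) with its 95% confidence interval is plotted for genes of the SCF ligase and its regulators, grouped by list (left), and for 24 known substrates, 1 per row (right), with dashed lines at 1.5-fold. In the left panel Cul1 (0.69) is the gene that rose and Dcun1d2 (−0.93), Cand2 (−0.73) and Kdm2b (−0.74) are those that fell, while the substrates range from −1.77 for Bcl6 to 2.81 for Cdkn1a.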

How the data were processed

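Gastrocnemius and plantaris RNA pools with RNA integrity numbers of at least 8.0 were hybridized to whole-transcript arrays. The authors made the deposited log2 values with RMA and the Brainarray custom CDF, version 13, which has 1 probe set per gene. RMA corrects the background, normalizes by quantiles and summarizes probes, so the 6 arrays share a scale. For the probes' genome build, nothing was given in the sources used here. No further normalization was applied. Precision is limited by 3 pools per group.

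Of 21212 probe sets 18786 carried 1 symbol in the platform annotation. The 3 C26 pools were set against the 3 control pools in a two-sided limma fit (version 3.58.1, under R 4.3.3) with eBayes moderation on 4.52 prior degrees of freedom. Tables were joined in Python 3.11.15 with pandas 2.3.3. The script was tested on simulated data. The members and the gene lists, of ligase partners, regulators, substrates, muscle F-box genes, related pairs and cell type markers, were chosen with earlier results of these data known.

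Genes named are the called members, the muscle F-box list, Skp1, Skp2 and Rbx1, relatives of called members, the 5 largest changes under 1.5-fold that pass the adjusted p, and up to 4 called genes per list. Other genes named were chosen after their values were seen. Alternatives were t-tests with equal and with unequal variances, eBayes with trend and robust settings, median centring, quantile normalization and a background filter. Further ones were the replicate number as a block, other fold minimums and leaving out each array. The methods name a parametric t-test and do not say whether variances were taken as equal. Protein identities between relatives were planned and not computed here.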

Additional observations from a re-analysis of the deposited data

How the results depend on the processing

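The 4.35-fold rise of Fbxo32 and the rises of Fbxo31, Fbxo30 and Fbxw11 were called under each alternative except that Fbxw11 missed a 2-fold minimum, and no called gene that the rule names changed direction. The uncalled Skp1 and Fbxl21, whose log2 fold changes were under 0.05 in size, changed sign with quantile normalization (−0.05 and 0.02), Skp1 also without control replicate 3 (−0.02) and Fbxl21 with median centring (0.03). With unequal variances 4 members rose and 2 fell, and 760 probe sets rose and 621 fell on the whole array, against 1261 and 1049. The cause was not tested. Without a fold minimum 10 members were higher and 13 lower (Rbx1 among these), 18 and 20 of the 70 partner, regulator and substrate genes, and 3041 and 3344 of all probe sets. At a 2-fold minimum 3 members rose and 1 fell, 3 and 4 of the partner, regulator and substrate genes, and 432 and 307 of all probe sets. These last settings change the threshold alone. The members' median log2 fold change was −0.000316 after median centring and −0.0192 after quantile normalization, which shift every gene. Leaving out 1 array at a time gave 5 to 6 members that rose and 4 to 5 that fell, a median of −0.088 to −0.042, and 1196 to 1391 rises and 992 to 1155 falls on the array. In the lists of partners, regulators and substrates it gave 5 to 9 rises, against 6, and 7 to 8 falls, against 8. Centring on medians gave 1534 rises and 839 falls on the array. Groups share replicate numbers 1 and 3, and the deviations of these pools from their group means correlated at −0.06 and −0.06. The sources used here do not say whether the numbers pair the pools, and correlations between single arrays cannot exclude it. With the replicate block 5 members rose, without Fbxo4 (0.54, adjusted p = 0.0340 from limma), and 4 fell, and 1235 probe sets rose and 1069 fell. The precision is limited by 3 pools per group.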
